A study of Mus musculus with 10 samples.

Results

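Regulatory T cells (Tregs) from melanomas were compared with Tregs from lymph node (LN) in mice whose lymphatic endothelium lacks MHC class II. The comparison takes, by the submitters' column labels, 2 tumor and 2 LN libraries of Prox1 Cre positive mice, which are 4 of the 10 libraries of the series, and it was made over all genes. These mice carry the genotype MHCIIdeltaProx-1, in which Cre recombinase under Prox1 control acts on a floxed MHC class II allele, and they are called MHCII-deleted here. Control mice carry MHCIIfl/fl without Cre and gave 3 tumor and 3 LN libraries. All mice were 10 weeks old and, per the series text, received a lymphangiogenic mouse melanoma line, and in all of them Tregs were sorted by red fluorescent protein. The labels do not say which gene drives the fluorescent protein, whether a library comes from 1 mouse or several, or whether same-numbered libraries share a mouse. The p-values therefore measure only the spread between these libraries, which may be technical. Prox1 specifies lymphatic endothelium but is also active in some other cell types, such as hepatocytes, and the deletion is not meant for the sorted cells, so their RNA cannot check it.

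Tregs are CD4 T cells that depend on the transcription factor Foxp3 and restrain other immune cells. Resting Tregs circulate through lymph nodes with the transcription factors Tcf7 and Lef1, whereas effector Tregs in tissues and tumors lose these and carry Ctla4, costimulatory receptors of the TNF receptor superfamily and tissue-homing chemokine receptors. MHC class II on other cells presents the peptides that CD4 T cell receptors recognise, and lymphatic endothelium is one of the cell types that can do so.

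The total count of the 4 libraries lay between 28945497 and 34776051. A count of 0 in a library allows up to 0.0863 to 0.104 CPM (counts scaled to the library total), which covers counting error only. Foxp3 and Cd4 were detected in all 4 libraries, while Cd8a stayed at 0.604 and 0.293 CPM in LN and 1.55 and 0.962 CPM in tumor. H2-Ab1, which encodes a chain of MHC class II, was at 16.5 and 15.8 CPM in LN and 15.8 and 39.8 CPM in tumor.

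The tumor libraries held RNA of other cells. Markers of melanoma and melanocytes summed to 36.7 and 29.3 CPM in LN and 22160.3 and 26004 CPM in tumor, and all 18 of them were higher in tumor. Tyrp1, a pigment enzyme, was at 2.47 and 1.82 CPM in LN and 2993 and 3352 CPM in tumor, and Sox10, the transcription factor of the melanocyte lineage, had a count of 0 in both LN libraries and 383 and 226 CPM in tumor, at least 6499-fold higher against a floor of 3 counts over both LN libraries. Cd3e and Cd3g, which encode chains of the T cell receptor complex, and Lck, its kinase, together made up 5345 and 5346 CPM in LN but 1915 and 2227 CPM in tumor. Both tumor libraries were below both LN libraries. Fibroblast markers summed to 2.79 and 2.73 CPM in LN and 908 and 1508 CPM in tumor and endothelial markers to 1.18 and 1.63 CPM in LN and 176 and 509 CPM in tumor. The lymphatic endothelial genes Lyve1 and Ccl21a differed between the tumor libraries, with 2.8 and 84.9 CPM for Lyve1 and 2.8 and 69.3 CPM for Ccl21a, and both had a count of 0 in LN. Myeloid markers summed to 106 and 56.3 CPM in LN and 444 and 643 CPM in tumor. Most of the tumor sums, but not of the LN sums, was Apoe, a lipid carrier that other cells also make. Apoe was at 40.1 and 17.1 CPM in LN and 406 and 446 CPM in tumor. On library totals 3 of the 18 myeloid markers tested were called higher in tumor (Apoe, Cd14 and Cebpb) and 0 lower, where 24.7% of all tested genes were higher. Relative to T cell genes, the scale described below, 5 were higher and 0 lower, where 69.8% of all genes were higher. The macrophage marker Adgre1 stayed at or under 0.641 CPM in all 4 libraries. B and plasma cell markers went the other way, with 1266 and 1836 CPM in LN and 411 and 474 CPM in tumor, most of it the immunoglobulin gene Ighm. Markers of CD8 T and NK cells summed to 37 and 37.5 CPM in LN and 23.5 and 21.9 CPM in tumor.

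**Figure D1:**
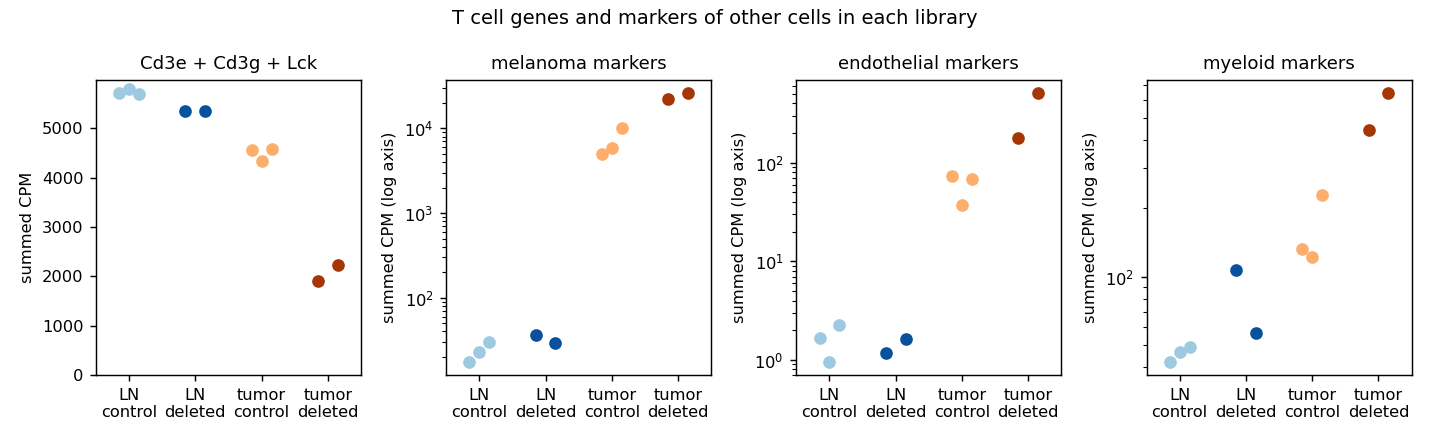
Summed CPM of Cd3e, Cd3g and Lck (linear axis) and of 3 marker lists (log axes) in each library of the 4 groups, 1 point per library. The 2 tumor libraries of MHCII-deleted mice have the lowest T cell gene levels and the highest melanoma marker sums of the 10 libraries.

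Because of this other RNA, each gene was compared on a pair of scales. On the first, counts were taken relative to the library total, and on the second relative to the summed counts of Cd3e, Cd3g and Lck. The offset between the scales is 1.37 on the log2 scale, and because the model was fitted anew on each, single genes shift by somewhat more or less. The second scale expresses a gene per count of Cd3e, Cd3g and Lck. These stand for T cell RNA only if their share of it is alike in both tissues, which was not tested. The scale does not take melanoma RNA away: the melanoma genes had a median log2 fold change of 10.42 on totals and 11.80 relative to T cell genes. A gene that melanoma cells also express can thus be higher in tumor on both scales, and for such genes the part of the melanoma RNA in the result was not tested. In bulk libraries, fewer Tregs and less RNA per Treg cannot be told apart.

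Tumor library 1 stood apart from tumor library 2 for part of the genes. Of 7683 genes with at least 20 CPM in tumor library 2, 297 were at least 4-fold lower in tumor library 1, and 89.2% of those hold a transcript window of 100 bases with over 75% GC, against 51.5% of all 7683. In the reverse direction 8 genes differed that much, and between the LN libraries 10 and 5. Over the other groups of the series such counts were 0 to 38. Mcl1, a survival factor, shows it with 523 and 372 CPM in LN and 49.9 and 561 CPM in tumor, and so does the AP-1 subunit Jund with 607 and 564 CPM in LN and 87.5 and 819.7 CPM in tumor. For both, the tumor libraries lay on either side of the LN libraries, and neither gene was called on either scale (edgeR adjusted p = 0.594 and 0.744 on totals). For the tissue effect, a number of the results below that touch such genes are also given without tumor library 1. The difference from control mice was not refitted in that way.

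**Figure D2:**
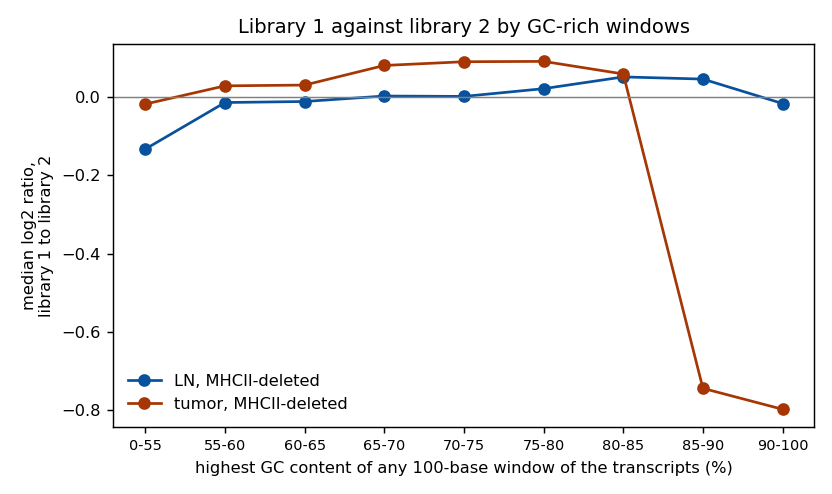
Median log2 ratio of library 1 to library 2 for LN and tumor of MHCII-deleted mice, over genes with at least 20 CPM in either library, by the highest GC content of any 100-base window in the gene's transcripts. The tumor ratio drops to -0.74 for windows of 85 to 90% GC, while the LN ratio stays near 0.

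Of 13920 genes tested with edgeR's quasi-likelihood test, 3435 (24.7%) were higher and 2729 (19.6%) lower in tumor on library totals, at an adjusted p under 0.05 and with a median log2 fold change of 0.08. Relative to T cell genes 9712 (69.8%) were higher and 235 (1.69%) lower, and the median was 1.46. These percentages are the background against which the members of each list are counted below. Every one of the 3435 genes higher on totals was also higher relative to T cell genes. Of the genes lower on totals, 235 stayed lower, 1296 were no longer called and 1198 turned to higher. The p-values on the second scale do not cover the error of the 3 genes that set it.

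**Figure D3:**
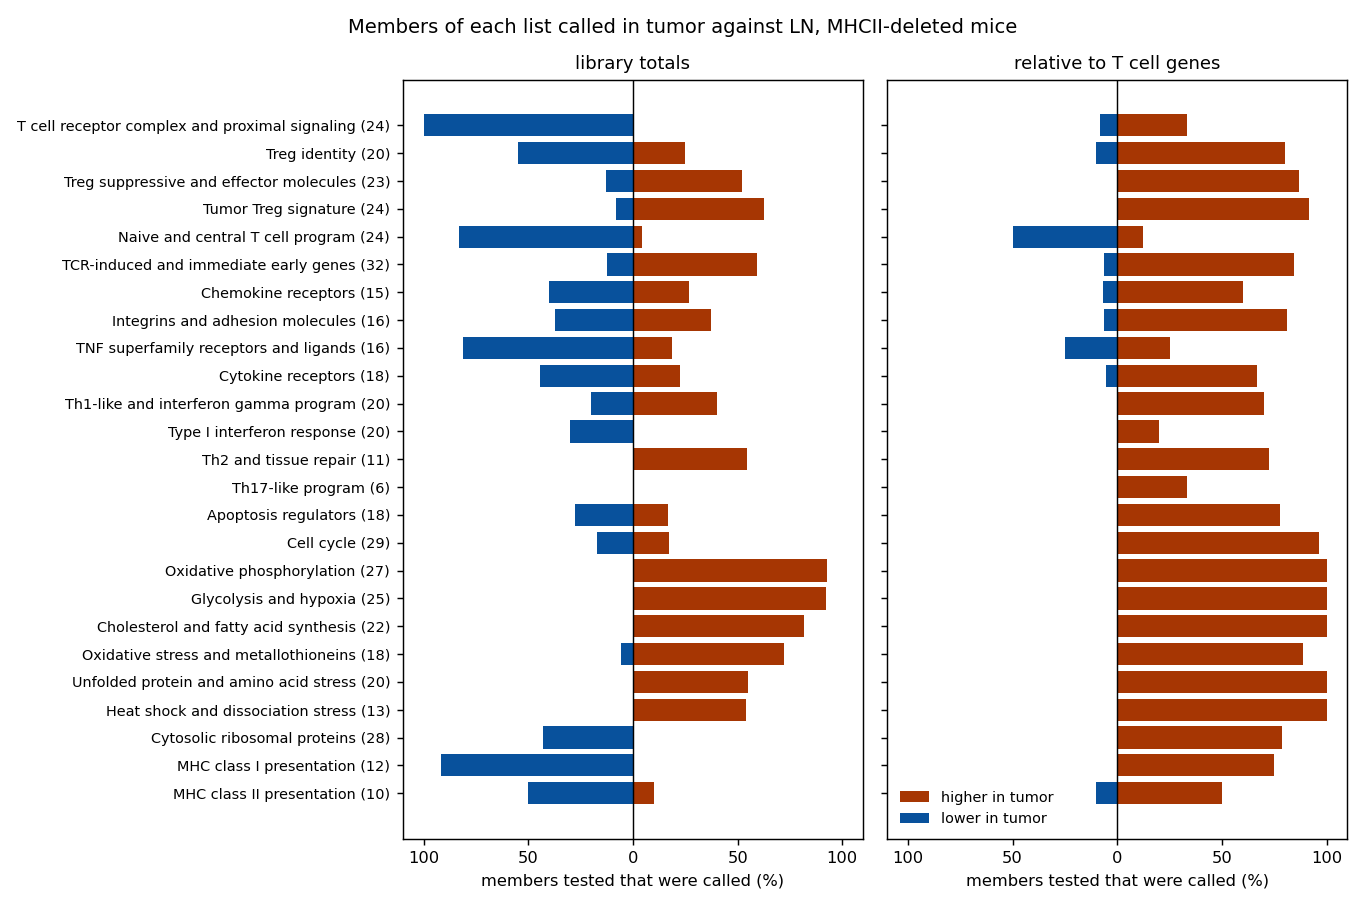
Share of the tested members of each gene list that were called higher (right) or lower (left) in tumor than in LN of MHCII-deleted mice, on library totals and relative to T cell genes, with the number tested in brackets. The naive program has 20 of 24 members lower on totals and 12 lower relative to T cell genes, while the T cell receptor list goes from 24 lower to 2 lower.

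Genes of the T cell receptor complex and its proximal signaling fell on totals and were close to level per T cell gene. On library totals 0 of 24 were higher and 24 lower in tumor (median log2 fold change -1.26), and relative to T cell genes 8 were higher and 2 lower (median 0.10). By omission of 1 library the number lower relative to T cell genes became 0 (without LN library 1 or LN library 2) and 1 (without tumor library 2). That number was 0 with Lck alone as the scale, 5 with Cd3g alone, 7 with all 24 genes (median -0.14) and 0 when only the 4 libraries were fitted. The number higher was 5 with Cd3g alone. The list includes the 3 scaling genes, so its second count is partly fixed by the scale. Zap70, the kinase that binds the receptor's zeta chain, was at 488 and 465 CPM in LN and 172 and 188 CPM in tumor. Its tumor libraries were both below LN on totals, with a log2 fold change of -1.40 ± 0.09 (SE), but relative to T cell genes the value was -0.03 ± 0.10 (adjusted p = 0.788). Cd6, a costimulatory receptor, was at 1489.9 and 1442 CPM in LN and 926 and 1134 CPM in tumor, which is -0.51 on totals and 0.86 relative to T cell genes, so its call turned from lower to higher. The members lower on both scales were Trat1, an adaptor of the receptor complex, and Bcl11b, a transcription factor of T cell identity outside the kinase cascade. Trat1 had 154 and 146 CPM in LN and 41.8 and 44.5 CPM in tumor, with -0.43 ± 0.14 relative to T cell genes. Bcl11b had 778 and 703 CPM in LN and 100.47 and 225 CPM in tumor, a log2 fold change of -2.19 ± 0.35 on totals and -0.85 ± 0.29 relative to T cell genes. Its tumor libraries differed more than 2-fold. The second call was lost without tumor library 1 (-0.46) and without LN library 1 or 2 (-0.78 and -0.92). That of Trat1 was lost without either LN library or without tumor library 2 (-0.39, -0.47 and -0.36).

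Treg identity genes did not move as a block. On library totals 5 of 20 were higher and 11 lower in tumor (median log2 fold change -0.45), and relative to T cell genes 16 were higher and 2 lower (median 0.93), the latter a share near the 69.8% of all genes. On omission of 1 library, the number higher on totals became 3 (without tumor library 2), and the number lower on totals became 7 (without LN library 1). Foxp3, the lineage factor (chromosome X, 7573644 to 7595245 in GRCm38), was at 587 and 662 CPM in LN and 359 and 349 CPM in tumor. Both tumor libraries were below both LN libraries, with a log2 fold change of -0.82 ± 0.12 (adjusted p = 0.000474). Per 1000 counts of Cd3e, Cd3g and Lck, however, Foxp3 was at 109.9 and 124 in LN and 187 and 156 in tumor, and there tumor was higher, with 0.56 ± 0.15 (adjusted p = 0.00662). That second call was lost when Cd3g alone or all 24 T cell receptor genes set the scale (0.31 and 0.31) and without LN library 1 (0.47). Il2ra, the high-affinity chain of the interleukin 2 receptor, and Ikzf2, which encodes Helios, had the same pattern, with -0.68 and -0.68 on totals and 0.69 and 0.69 relative to T cell genes. Their calls on totals were lost without 1 library: Il2ra without LN library 1 (-0.43) or tumor library 1 (-0.59), and Ikzf2 without LN library 2 (-0.47). The call of Ikzf2 relative to T cell genes was lost with Cd3g alone (0.44).

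The co-inhibitory receptor Ctla4 (chromosome 1, 60887000 to 60915832 in GRCm38) rose on either scale. It was at 297 and 348 CPM in LN and 1264 and 1514 CPM in tumor, and both tumor libraries were far above both LN libraries. The log2 fold change was 2.11 ± 0.12 on totals and 3.47 ± 0.11 relative to T cell genes. Tnfrsf18, which encodes the costimulatory receptor GITR, was at 438 and 514 CPM in LN and 673 and 755 CPM in tumor, or 0.58 ± 0.12 and 1.95 ± 0.13. The identity genes lower on both scales were Izumo1r and Gpr83. Izumo1r, the folate receptor 4 of resting Tregs, was at 793 and 821 CPM in LN and 121 and 171 CPM in tumor. Its log2 fold change was -2.47 ± 0.17 on totals and -1.11 ± 0.14 relative to T cell genes. Gpr83, a G protein-coupled receptor enriched in Tregs, was at 254 and 151 CPM in LN and 8.33 and 11.5 CPM in tumor, the steepest drop among identity genes (-4.35 ± 0.36 and -3.00 ± 0.33).

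Many suppressive and effector molecules, and many genes of the tumor Treg signature, were higher in tumor. For the 24 suppressive and effector genes, of which 23 were tested, on library totals 12 of 23 were higher and 3 lower in tumor (median log2 fold change 0.70), and relative to T cell genes 20 were higher and 0 lower (median 2.06). With a library removed, the number lower on totals became 1 (without LN library 2 or tumor library 1). For the tumor Treg signature, on library totals 15 of 24 were higher and 2 lower in tumor (median log2 fold change 0.84), and relative to T cell genes 22 were higher and 0 lower (median 2.20). Without 1 of the libraries, the number lower on totals became 1 (without LN library 2 or tumor library 1). Some genes stand in more than 1 list. Il10, an immunosuppressive cytokine, was at 3.16 and 3.03 CPM in LN and 24.1 and 29.1 CPM in tumor, with 3.10 ± 0.18 on totals and 4.47 ± 0.19 relative to T cell genes. Gzmb, the protease granzyme B, was at 20.8 and 45.9 CPM in LN and 839 and 781 CPM in tumor, a log2 fold change of 4.60 ± 0.48 and 5.98 ± 0.52. For both genes the tumor libraries were close to each other and did not overlap with LN. Icos, a costimulatory receptor, was at 498 and 662 CPM in LN and 819.5 and 1069 CPM in tumor (0.70 ± 0.16 and 2.06 ± 0.14), and its call on totals was lost without LN library 1 (0.51). Fgl2, a secreted suppressive molecule, rose by 2.92 and Id2, a transcriptional regulator of effector cells, by 2.31 on totals.

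Among the genes that mark Tregs in tumors, Tnfrsf9, which encodes the costimulatory receptor 4-1BB, was at 355 and 397 CPM in LN and 1056 and 1004 CPM in tumor. Its log2 fold change was 1.45 ± 0.16 on totals and 2.83 ± 0.20 relative to T cell genes. The chemokine receptor Ccr8 was at 118 and 109.9 CPM in LN and 259 and 349 CPM in tumor, or 1.42 ± 0.16 and 2.78 ± 0.15. Cxcr6, a receptor of tissue-resident T cells, was at 31.1 and 34.4 CPM in LN and 285 and 375 CPM in tumor, or 3.33 ± 0.25 and 4.69 ± 0.26. In all 3 genes both tumor libraries exceeded both LN libraries on either scale. The membrane protease Adam8, which can shed adhesion molecules, rose by 4.26 on totals. Cxcr5, which guides cells to B cell follicles, was the chemokine receptor lower on both scales, at 157 and 212 CPM in LN and 27.3 and 20.3 CPM in tumor (-2.96 ± 0.25 and -1.57 ± 0.28). For the 15 chemokine receptors as a list, on library totals 4 of 15 were higher and 6 lower in tumor (median log2 fold change -0.29), and relative to T cell genes 9 were higher and 1 lower (median 1.09). With 1 library left out, the number lower on totals became 3 (without LN library 1 or LN library 2 or tumor library 2). It was also 3 with RLE size factors.

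**Figure D4:**
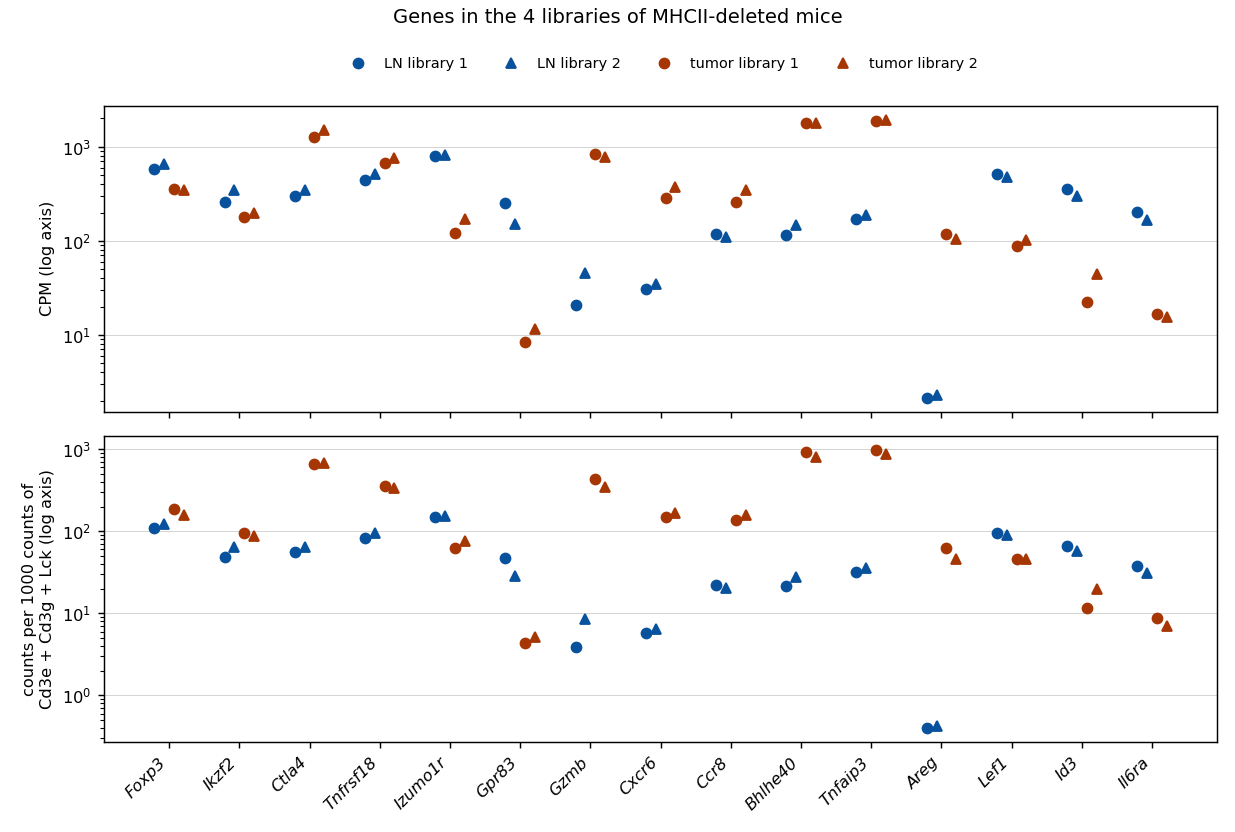
Levels of 15 genes in the 4 libraries of MHCII-deleted mice, as CPM and per 1000 counts of Cd3e, Cd3g and Lck (log axes), circles for library 1 and triangles for library 2. Foxp3 and Ikzf2 lie lower in tumor in the upper panel and higher in the lower one, whereas Izumo1r, Gpr83, Lef1, Id3 and Il6ra are lower and the other 8 genes higher in both panels.

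Genes induced by the T cell receptor, many of them immediate early genes, had members moving in opposite directions. On library totals 19 of 32 were higher and 4 lower in tumor (median log2 fold change 1.16), and relative to T cell genes 27 were higher and 2 lower (median 2.53). Tnfaip3, a feedback inhibitor of NF-kB, was at 173 and 189 CPM in LN and 1883 and 1949 CPM in tumor. Bhlhe40, a transcriptional regulator of cytokine genes, was at 115 and 149 CPM in LN and 1772 and 1807 CPM in tumor. The tumor libraries were close to each other in both genes, and the log2 fold changes were 3.41 ± 0.15 and 3.76 ± 0.14 on totals and 4.78 ± 0.19 and 5.13 ± 0.15 relative to T cell genes. Nfkbiz, an inducible cofactor of NF-kB, and Dusp4, a phosphatase of MAP kinases, rose by 3.31 and 3.08 on totals. Egr2 and Egr3, transcription factors induced through calcium signaling, were lower on both scales. Egr2 was at 193 and 168 CPM in LN and 7.08 and 20.7 CPM in tumor and Egr3 at 31.9 and 42.9 CPM in LN and 1.83 and 3.97 CPM in tumor. Their log2 fold changes were -3.69 ± 0.39 and -3.68 ± 0.35 on totals and -2.37 ± 0.33 and -2.34 ± 0.32 relative to T cell genes. Tumor library 1 was the lower one for both, and without it the values were -3.12 and -3.24 on totals. This list is touched by the GC-rich genes: with both tumor libraries 4 members were lower on totals, without tumor library 1 there were 3, and without tumor library 2 there were 10. Dusp2, another MAP kinase phosphatase, was at 139.8 and 120.4 CPM in LN and 5.25 and 154 CPM in tumor, 0.25 on totals without tumor library 1 and -4.63 without tumor library 2.

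Promoters of this list were searched for TGACGTCA, the full palindromic site of cyclic AMP response elements, which reads the same on both strands. In the window from 250 bases before to 50 after the transcription start (RefSeq, GRCm38.p6), 4 of the 23 members matched (17.4%) held it, namely Dusp1, Nfkbid, Ppp1r15a and Btg2, against 2.03% of the 27025 genes in the promoter table. Dusp1, a MAP kinase phosphatase, was at 274 and 289 CPM in LN and 682 and 848 CPM in tumor (1.44 ± 0.25 on totals), and Ppp1r15a, a phosphatase subunit of the stress response, at 96.3 and 105 CPM in LN and 343 and 531 CPM in tumor (2.12 ± 0.23). Both rose on either scale, and their promoters are shown 5′ to 3′ on the minus strand with the motif in capitals, Dusp1 at chr17:26508423-26508722 and Ppp1r15a at chr7:45526219-45526518. The match is a description of letters and does not show that a factor binds there. Levels are given for Dusp1 and Ppp1r15a only, and whether the motif goes with a rise in tumor was not tested.
Dusp1: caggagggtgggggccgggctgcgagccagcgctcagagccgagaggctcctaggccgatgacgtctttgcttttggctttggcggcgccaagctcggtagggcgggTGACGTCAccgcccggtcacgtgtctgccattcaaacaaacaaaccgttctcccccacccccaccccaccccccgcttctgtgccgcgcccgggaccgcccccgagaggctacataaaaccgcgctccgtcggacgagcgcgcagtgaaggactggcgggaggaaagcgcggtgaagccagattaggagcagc
Ppp1r15a: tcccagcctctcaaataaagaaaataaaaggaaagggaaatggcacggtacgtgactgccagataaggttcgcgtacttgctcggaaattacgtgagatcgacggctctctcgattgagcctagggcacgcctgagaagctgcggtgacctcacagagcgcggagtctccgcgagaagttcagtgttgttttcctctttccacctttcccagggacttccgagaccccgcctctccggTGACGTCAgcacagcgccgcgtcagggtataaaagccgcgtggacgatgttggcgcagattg

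Many genes of the naive and central T cell program stayed lower in tumor even relative to T cell genes. On library totals 1 of 24 were higher and 20 lower in tumor (median log2 fold change -2.12), and relative to T cell genes 3 were higher and 12 lower (median -0.74), where 1.69% of all genes were lower. By omission of 1 library the number higher on totals became 0 (without LN library 1 or LN library 2 or tumor library 1). Lef1, a transcription factor of resting T cells, was at 516 and 479.9 CPM in LN and 88.5 and 101 CPM in tumor, with a log2 fold change of -2.39 ± 0.11 on totals and -1.02 ± 0.11 relative to T cell genes. Its partner Tcf7 was at 668 and 682 CPM in LN and 69.6 and 156 CPM in tumor, with -2.58 ± 0.31 and -1.24 ± 0.25. Tcf7 had -2.11 and -0.85 without tumor library 1, and -3.28 and -1.80 without tumor library 2. The groups of Lef1 and Tcf7 did not overlap on either scale. Id3, an inhibitor of E proteins, was at 355 and 303 CPM in LN and 22.1 and 44.5 CPM in tumor, with -3.30 ± 0.27 and -1.96 ± 0.22. Id3 had -2.89 and -1.62 without tumor library 1, and -3.89 and -2.41 without tumor library 2. Il6ra, the interleukin 6 receptor, was at 202 and 165 CPM in LN and 16.7 and 15.5 CPM in tumor, with -3.51 ± 0.21 and -2.13 ± 0.22. Again neither gene's groups overlapped. Dapl1, a small protein of resting T cells, fell by 5.59 on the log2 scale on totals, the steepest change in the list. Its value on totals was -4.91 without tumor library 1 and -7.04 without tumor library 2. Il7r, the interleukin 7 receptor, was the member higher on both scales, at 100.01 and 93.3 CPM in LN and 179 and 113 CPM in tumor (0.59 ± 0.18 and 1.99 ± 0.24), and its call on totals was lost without either LN library (0.65 and 0.55) or without tumor library 1 (0.22). Klf2, a transcription factor of resting T cells, was at 485 and 387 CPM in LN and 27.9 and 291 CPM in tumor and was not called. Without tumor library 1 it stood at -0.58 on totals and 0.68 relative to T cell genes, and without tumor library 2 at -3.96 and -2.48.

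Most TNF superfamily genes fell on totals. On library totals 3 of 16 were higher and 13 lower in tumor (median log2 fold change -1.44), and relative to T cell genes 4 were higher and 4 lower (median -0.07). The ligands Cd40lg, which licenses antigen-presenting cells, and Tnfsf14, also called LIGHT, were lower on both scales. Cd40lg was at 95.4 and 69.8 CPM in LN and 15.9 and 16.6 CPM in tumor, with -2.35 ± 0.18 and -0.97 ± 0.19. Tnfsf14 was at 24.7 and 22.7 CPM in LN and 1.52 and 2.77 CPM in tumor, with -3.46 ± 0.38 and -2.12 ± 0.35. Neither ligand had overlapping groups.

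Genes of type 2 immunity and tissue repair rose in part, as did some Th1-like genes. On library totals 6 of 11 were higher and 0 lower in tumor (median log2 fold change 1.86), and relative to T cell genes 8 were higher and 0 lower (median 3.24). On omission of 1 library, the number lower on totals became 1 (without tumor library 1). Areg, an epidermal growth factor receptor ligand that Tregs use in tissue repair, was at 2.13 and 2.28 CPM in LN and 118 and 103 CPM in tumor. That is 5.65 ± 0.23 on totals and 7.03 ± 0.28 relative to T cell genes, with no overlap. Il1rl1, the interleukin 33 receptor, was at 23.5 and 30.6 CPM in LN and 99.7 and 70 CPM in tumor, with 1.65 ± 0.40 and 3.04 ± 0.45, and without LN library 1 its call on totals was lost (1.47). For the Th1-like and interferon gamma program, on library totals 8 of 20 were higher and 4 lower in tumor (median log2 fold change 0.02), and relative to T cell genes 14 were higher and 0 lower (median 1.35), the latter a share near that of all genes. With a library removed, the number lower on totals became 1 (without LN library 2) and 2 (without tumor library 1). Nkg7, a granule protein of cytotoxic cells, was at 57.9 and 59 CPM in LN and 357 and 359 CPM in tumor, with 2.62 ± 0.26 and 3.99 ± 0.28. The chemokine Ccl3 was at 0.431 and 0.455 CPM in LN and 21.5 and 17.2 CPM in tumor, with 5.43 ± 0.33 and 6.82 ± 0.37. Il12rb2, the signaling chain of the interleukin 12 receptor, was at 0.69 and 0.878 CPM in LN and 25.9 and 26.6 CPM in tumor, with 5.06 ± 0.52 and 6.44 ± 0.54. CD8 T and NK cell markers, whose cells share these genes, were lower in sum in tumor on totals, as given above. By member 0 of 8 were higher and 2 lower on totals (median log2 fold change 1.11), and 5 were higher and 1 lower relative to T cell genes (median 2.50). With a replicate block 3 were higher on the second scale. Cd8a was higher in both tumor libraries than in either LN library. The part of such cells in the Th1-like genes was not tested.

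Interferon-induced genes depended on 1 LN library. On library totals 0 of 20 were higher and 6 lower in tumor (median log2 fold change -0.70), and relative to T cell genes 4 were higher and 0 lower (median 0.67). Ifit1, an antiviral effector, was at 61.7 and 335 CPM in LN and 95.2 and 128 CPM in tumor, and Isg15, a ubiquitin-like modifier, at 36.6 and 157 CPM in LN and 75.7 and 74.9 CPM in tumor. In both genes LN library 2 was far above LN library 1 and the tumor libraries lay between them. Without LN library 1, 16 of 20 genes were lower and 0 higher on totals (median -1.39), and without LN library 2, 2 were lower and 6 higher (median 0.60). The list's direction on totals thus turned with the LN library that was left out. Relative to T cell genes 4 were higher without LN library 1 and 18 without LN library 2. With all libraries that count was 2 with Cd3g alone as the scale and 2 with the 24 T cell receptor genes, and a fit of only the 4 libraries left 2 lower on totals.

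Nearly all MHC class I presentation genes fell on totals, while their count per T cell gene varied with the scaling genes. On library totals 0 of 12 were higher and 11 lower in tumor (median log2 fold change -0.85), and relative to T cell genes 9 were higher and 0 lower (median 0.51), the latter a share near that of all genes. Without 1 of the libraries, the number higher relative to T cell genes became 5 (without LN library 1). It was 4 with Cd3g alone as the scale, 5 with the 24 T cell receptor genes, 12 with Lck alone and 5 when only the 4 libraries were fitted. B2m, the light chain of MHC class I, was at 5432 and 5836 CPM in LN and 3161 and 3889.6 CPM in tumor, with -0.68 ± 0.13 and 0.69 ± 0.11.

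Most metabolic genes rose on either scale, beside the melanoma markers that rose in the same libraries. For glycolysis and hypoxia, on library totals 23 of 25 were higher and 0 lower in tumor (median log2 fold change 2.51), and relative to T cell genes 25 were higher and 0 lower (median 3.91). Aldoa, a glycolytic enzyme, was at 658 and 691 CPM in LN and 5762 and 3868 CPM in tumor, with 2.84 ± 0.17 and 4.23 ± 0.23. Slc2a1, a glucose transporter, was at 88.5 and 95.1 CPM in LN and 504 and 408 CPM in tumor, with 2.31 ± 0.12 and 3.70 ± 0.17. Both enzyme and transporter were higher in both tumor libraries, and more so in library 1, which had the lower T cell gene level and also the lower sums of melanoma, fibroblast, endothelial and myeloid markers. Vegfa, the angiogenic growth factor, was close to absent in LN and clear in tumor, at 0.0863 and 0.195 CPM in LN and 213 and 129 CPM in tumor. For nuclear-encoded oxidative phosphorylation genes, on library totals 25 of 27 were higher and 0 lower in tumor (median log2 fold change 0.92), and relative to T cell genes 27 were higher and 0 lower (median 2.32). Ndufs1, a subunit of complex I, was at 116 and 118 CPM in LN and 354 and 289.6 CPM in tumor, with 1.46 ± 0.13 and 2.84 ± 0.17. For cholesterol and fatty acid synthesis, on library totals 18 of 22 were higher and 0 lower in tumor (median log2 fold change 1.38), and relative to T cell genes 22 were higher and 0 lower (median 2.75), with Hmgcs1, an early enzyme of the pathway, at 1.42 ± 0.16 on totals. In all 3 pathways no member was lower on either scale. For oxidative stress genes and metallothioneins, on library totals 13 of 18 were higher and 1 lower in tumor (median log2 fold change 1.19), and relative to T cell genes 16 were higher and 0 lower (median 2.59). With 1 library left out, the number lower on totals became 3 (without tumor library 2), and the number lower relative to T cell genes became 1 (without tumor library 2). Hmox1, the heme-degrading enzyme, was at 7.94 and 10.9 CPM in LN and 139 and 96.7 CPM in tumor, with 3.65 ± 0.35 and 5.04 ± 0.40. Melanoma cells express these pathways too, and the part of their RNA in these results was not tested.

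Cell cycle genes were divided on totals and nearly all higher relative to T cell genes, while the count of ribosomal protein genes varied with the scaling genes. For the 29 cell cycle genes tested, on library totals 5 of 29 were higher and 5 lower in tumor (median log2 fold change -0.04), and relative to T cell genes 28 were higher and 0 lower (median 1.34). On that second scale 69.8% of all tested genes were higher and their median was 1.46, so the list's median did not exceed that of all genes. By omission of 1 library the number lower on totals became 2 (without LN library 1 or tumor library 1) and 3 (without LN library 2 or tumor library 2). With RLE size factors it was 3, and with only the 4 libraries 2. Rrm2, a subunit of ribonucleotide reductase, was at 161 and 146 CPM in LN and 274 and 264 CPM in tumor, with 0.81 ± 0.18 and 2.19 ± 0.20. Mcm2, of the replicative helicase, was at 242 and 212 CPM in LN and 331 and 344 CPM in tumor, with 0.57 ± 0.11 and 1.95 ± 0.14. Both were higher in both tumor libraries than in either LN library. The part of melanoma RNA in the cell cycle list and in these genes was not tested. For cytosolic ribosomal proteins, on library totals 0 of 28 were higher and 12 lower in tumor (median log2 fold change -0.58), and relative to T cell genes 22 were higher and 0 lower (median 0.81), the latter a share near the 69.8% of all genes. On omission of 1 library, the number lower on totals became 5 (without LN library 1), and the number higher relative to T cell genes became 8 (without LN library 2) and 9 (without tumor library 1). It was 10 with Cd3g alone and 10 with the 24 T cell receptor genes as the scale.

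The steepest drops over all genes included some whose source cells in the LN libraries were not tested. Sostdc1, a secreted antagonist of BMP and Wnt signals, was at 4.8 and 16.1 CPM in LN and 0.0345 and 0 CPM in tumor. Wnt10a, a Wnt ligand, was at 33.4 and 32.1 CPM in LN and 1.42 and 0.233 CPM in tumor, with -5.33 ± 0.81 on totals and -3.90 ± 0.82 relative to T cell genes. Capn3, a calcium-dependent protease, was at 36.4 and 36.5 CPM in LN and 1.35 and 1.17 CPM in tumor, with -4.86 ± 0.35 and -3.48 ± 0.38. These 3 genes were lower in both tumor libraries on either scale. Pou2af1, a coactivator best known from B cells, was at 19.9 and 32.3 CPM in LN and 0.898 and 0.641 CPM in tumor, with -5.08 ± 0.35 and -3.70 ± 0.37, and Cd22, a B cell inhibitory receptor, was at 25.9 and 51.6 CPM in LN and 1.49 and 2.97 CPM in tumor, with -4.11 ± 0.60 and -2.77 ± 0.56. B and plasma cell markers were lower in sum in the same libraries, as given above, and their part in these drops was not tested.

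The tissue effect was then set against that in control mice, whose 6 libraries are not shared with this comparison. Genes called higher in tumor of MHCII-deleted mice on totals overlapped those of control mice in 2070 genes, which is 60.3% of the 3435 and 76.7% of the 2699 (19.4% of tested genes) in control mice, and genes called lower overlapped in 1799, or 65.9% of the 2729 and 54.0% of 3332 (23.9%). Relative to T cell genes 3724 higher genes were shared, 38.3% of those in MHCII-deleted and 95.8% of those in control mice, where 27.9% of genes were higher and 8.17% lower. Of the genes lower on that scale 194 were shared, 82.6% of 235 and 17.1% of 1137.

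By a test of the difference between the genotypes' tissue effects, 998 genes (7.17%) had a higher and 583 (4.19%) a lower tumor to LN ratio in MHCII-deleted mice on totals. TMM factors in place of plain totals turned that split to 577 higher and 914 lower. Relative to T cell genes 6834 (49.1%) were higher and 19 (0.136%) lower. Of the 24 T cell receptor genes, 20 had a lower ratio on totals, against 4 higher and 1 lower relative to T cell genes. Of the Treg identity genes 12 had a lower ratio on totals, while relative to T cell genes 3 were higher and 0 lower. Of the TCR-induced genes 15 were lower on totals, and relative to T cell genes 5 were higher. That list is touched by the GC-rich genes with low counts in tumor library 1, as given above. The difference from control mice was not refitted without that library. The naive program had 3 lower on totals and 10 higher relative to T cell genes. Melanoma markers summed to 4983 to 10075 CPM in tumor of control mice, below the 22160.3 and 26004 CPM in tumor of MHCII-deleted mice, and their part in these differences was not tested.

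**Figure D5:**
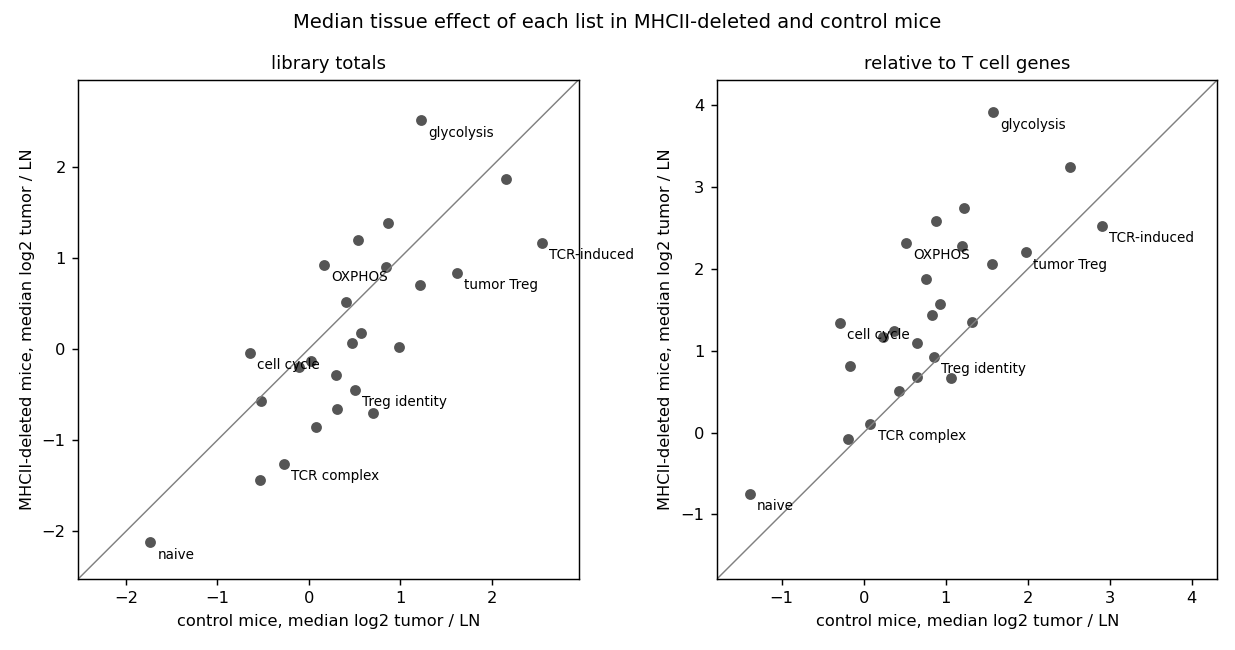
Median log2 tumor to LN ratio of each list in MHCII-deleted mice (vertical) against control mice (horizontal), 1 point per list, with the line of equal values; TCR is the T cell receptor and OXPHOS oxidative phosphorylation. On totals Treg identity lies at -0.45 against 0.50, and relative to T cell genes at 0.93 against 0.86, while glycolysis lies above the line on both scales.

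Ctla4 and Gzmb were higher in tumor in both genotypes. The tumor to LN ratio of Ctla4 on the log2 scale was 2.11 in MHCII-deleted and 2.47 in control mice on totals and 3.47 and 2.82 relative to T cell genes, and that of Gzmb was 4.60 in MHCII-deleted and 3.83 in control mice on totals and 5.98 and 4.19 relative to T cell genes. The difference for Ctla4 was -0.36 ± 0.15 on totals (adjusted p = 0.139) and 0.65 ± 0.13 relative to T cell genes (adjusted p = 0.00256). For Foxp3 it was -0.76 ± 0.16 (adjusted p = 0.0175) and 0.26 ± 0.19 (adjusted p = 0.298). For Foxp3 and Ctla4 the sign of the difference turned with the scale. On both scales together 998 genes had a higher and 12 a lower ratio in MHCII-deleted mice. The second scale raised differences in general, with a median over all tested genes of 0.17 on totals and 1.19 relative to T cell genes. All 998 genes higher on totals therefore stayed higher, and the split of 998 against 12 is no independent agreement of the scales.

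Those 12 include Rgs1, a brake on chemokine receptor signaling, with log2 ratios of 0.83 in MHCII-deleted and 2.37 in control mice on totals and 2.19 and 2.72 relative to T cell genes. Nrip1, a nuclear receptor corepressor, had -0.44 in MHCII-deleted and 1.33 in control mice on totals and 0.93 and 1.68 relative to T cell genes. Bcl11b had -2.19 in MHCII-deleted and -0.19 in control mice on totals and -0.85 and 0.16 relative to T cell genes. In all 3 genes the ratio was smaller in MHCII-deleted mice on either scale, but the second-scale call of Bcl11b was lost with Cd3e alone and that of Rgs1 with Cd3e or Cd3g alone. Among the 998, Ndufs1 had 1.46 in MHCII-deleted and -0.04 in control mice on totals and 2.84 and 0.31 relative to T cell genes, and Rrm2 had 0.81 in MHCII-deleted and -0.63 in control mice on totals and 2.19 and -0.28 relative to T cell genes. Hmox1 had 3.65 in MHCII-deleted and 1.29 in control mice on totals and 5.04 and 1.65 relative to T cell genes.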

How the data were processed

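RNA-seq counts of sorted Tregs were used from 2 LN and 2 tumor libraries of MHCII-deleted mice, with 3 and 3 of control mice in the fit. The deposited values are whole-number counts by Ensembl gene, which the authors made with CASAVA 1.8.2, STAR 2.4 and featureCounts 1.4.6 on GRCm38 per the submitters' processing notes. The annotation release and strand setting are not given in the sources used here, so overlapping and antisense genes cannot be told apart. Per the labels, RNA was amplified with the SMARTer Ultra Low kit and sequenced as single reads of 50 bases. All 21556 genes were matched to GENCODE M21.

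Genes were filtered with filterByExpr (minimum count 10), which kept 13920. A quasi-likelihood model (edgeR 4.0.16, R 4.3.3) took the 10 libraries as 4 group means with a robust estimate of their spread, scaled by library totals or by the counts of Cd3e, Cd3g and Lck. P-values were adjusted over all tested genes by the Benjamini-Hochberg method at 0.05. The standard error is the log2 fold change divided by the square root of F. The script was tested on simulated data. DESeq2 1.42.0 and limma-voom (limma 3.58.1) were alternatives.

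The comparison, the 33 gene lists and the alternatives were chosen with earlier results of these data known. Genes named are, per scale, the 10 called genes of at least 10 CPM with the largest change each way and no overlap, up to 4 called members per list by p, the 6 largest differences from control mice each way, and fixed Treg, T cell and marker genes, without receptor segments and predicted genes. A selection of these is printed, and Dusp1, Ppp1r15a, Egr2, Egr3, Tcf7, Il1rl1, Klf2, Jund, Mcl1, Dusp2, Ifit1, Isg15, Adgre1, Nfkbid and Btg2 were chosen after their values were seen.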

Additional observations from a re-analysis of the deposited data

Results flagged for a closer look

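The difference of the tissue effects between MHCII-deleted and control mice was tested as an interaction with edgeR. It passed on both scales in 1 direction for several of the genes named here. The scales are not independent: all 998 genes with a higher ratio on totals were also higher relative to T cell genes. Values are log2 differences on library totals and then relative to T cell genes. The tumor to LN ratio was higher in MHCII-deleted mice for these genes. Slc2a1, a glucose transporter, had 0.64 and 1.67. Aldoa, a glycolytic enzyme, had 1.35 and 2.39. Ndufs1, a complex I subunit, had 1.50 and 2.53. Hmgcs1, an enzyme of cholesterol synthesis, had 0.76 and 1.79. Hmox1, a heme-degrading enzyme, had 2.35 and 3.39. Rrm2, a ribonucleotide reductase subunit, had 1.44 and 2.47. Mcm2, a helicase subunit, had 0.94 and 1.96. Melanoma markers summed higher in tumor of MHCII-deleted than of control mice, and their part in these differences was not tested. With TMM or RLE size factors the differences of Slc2a1 and Hmgcs1 on totals no longer passed.

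The ratio was lower in MHCII-deleted mice for the following genes. Bcl11b, a T cell transcription factor, had -1.995 and -1.01. Rgs1, a regulator of G protein signaling, had -1.54 and -0.53. Zfp36l2, an RNA-binding decay factor, had -2.78 and -1.81. Sfrp2, a secreted stromal Wnt modulator, had -4.52 and -3.54. Nrip1, a nuclear receptor corepressor, had -1.77 and -0.75. Stk24, a serine/threonine kinase, had -1.76 and -0.75. Zfp36l2 was at 368 and 277 CPM in LN and 64.3 and 273 CPM in tumor, and so differed between the tumor libraries. Its tissue effect on totals was -0.24 without tumor library 1 and -2.33 without tumor library 2. For Bcl11b these values were -1.72 and -2.88. The differences of both genes from control mice were not refitted without tumor library 1. Sfrp2 stood below 1 CPM in all 4 libraries of MHCII-deleted mice, at 0.518 and 0.228 CPM in LN and 0.726 and 0.846 CPM in tumor, and at a mean of 12.6 ± 12.6 CPM (SD, n = 3) in control tumors. Fibroblast markers in tumor of control mice ranged from 704 to 4867 CPM, and their part in this was not tested. Relative to T cell genes, the differences of Bcl11b, Rgs1, Stk24 and Zfp36l2 no longer passed with Cd3e alone, nor those of Rgs1 and Stk24 with Cd3g alone. Groups of 2 or 3 libraries are too small for a test of single outlying libraries.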

How the results depend on the processing

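Leaving out 1 library at a time gave 2405 to 3122 genes higher and 1921 to 2590 lower on totals, and 8231 to 9291 higher and 152 to 304 lower relative to T cell genes, against 3435, 2729, 9712 and 235. Of these only the last moved by over 1.5 times, to 152 without LN library 1. Without GC-rich windows, an alternative chosen after seeing the data that left 7549 genes to test, the counts were 1829, 1559, 5172 and 150. With all 24 T cell receptor genes as the scale, 355 were lower. For the difference from control mice on totals, TMM gave 577 higher and 914 lower. Other alternatives stayed within 1.5 times: RLE, no low-count filter, non-robust spread, DESeq2, limma-voom, only the 4 libraries, no receptor segments, and Cd3e, Cd3g or Lck alone. Whether replicate numbers pair the libraries could not be told. Deviations of same-numbered LN and tumor libraries correlated with r = 0.035 across genes. With 2 libraries a group, unlike numbers give the same r with the opposite sign by construction. In control mice r was 0.020 to 0.047 for same-numbered and -0.035 to -0.0037 for unlike-numbered libraries. A replicate block gave 3122 and 2562 on totals and 9285 and 209 relative to T cell genes.

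Of 1037 recomputed log2 fold changes of named genes on totals 1005 kept direction and call, and of 1189 relative to T cell genes 1134 did. Those that changed sign were near 0 or had libraries far apart, and the cause was not tested. When 1 library was left out, values on totals ranged from -0.032 to 1.30 for H2-Ab1, -2.74 to 0.49 for Jund, -3.17 to 0.33 for Mcl1, -4.63 to 0.25 for Dusp2, -1.58 to 0.86 for Ifit1 and -1.06 to 1.04 for Isg15. Relative to T cell genes they ranged from -0.081 to 0.015 for Zap70, -2.48 to 0.68 for Klf2, -0.85 to 1.02 for Zfp36l2, -1.26 to 1.75 for Jund, -1.69 to 1.59 for Mcl1, -3.15 to 1.51 for Dusp2 and -0.22 to 2.22 for Ifit1. Isg15 was 0.022 on totals and Dusp2 -0.57 relative to T cell genes with limma-voom. With the replicate block Mcl1 was -0.016 and Dusp2 -0.73, with Lck alone Zap70 was 0.14 and Klf2 0.0024, and Stk24 was -0.09 with 24 genes and -0.099 with Cd3g alone. With 2 libraries a group, small changes can be missed, and genes near the floor of 3 counts give no stable fold.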

Other observations

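Other groups, not described above, were counted in the same way. For integrins and adhesion molecules, on library totals 6 of 16 were higher and 6 lower in tumor (median log2 fold change 0.06), and relative to T cell genes 13 were higher and 1 lower (median 1.43). With a library removed, the number higher on totals became 1 (without LN library 2) and 2 (without LN library 1) and 3 (without tumor library 2), and the number lower relative to T cell genes became 0 (without LN library 1 or LN library 2 or tumor library 1). The number higher on totals was also 3 with limma-voom and 3 when only the 4 libraries were fitted. For cytokine receptors, on library totals 4 of 18 were higher and 8 lower in tumor (median log2 fold change -0.20), and relative to T cell genes 12 were higher and 1 lower (median 1.17). Without 1 of the libraries, the number lower on totals became 5 (without tumor library 1), and the number lower relative to T cell genes became 0 (without LN library 1 or LN library 2 or tumor library 1 or tumor library 2). When only the 4 libraries were fitted, 2 were higher on totals. For apoptosis regulators, on library totals 3 of 18 were higher and 5 lower in tumor (median log2 fold change -0.13), and relative to T cell genes 14 were higher and 0 lower (median 1.24). With 1 library left out, the number lower on totals became 3 (without LN library 1 or LN library 2), and the number lower relative to T cell genes became 1 (without LN library 2 or tumor library 1 or tumor library 2). For genes of the unfolded protein and amino acid stress response, on library totals 11 of 20 were higher and 0 lower in tumor (median log2 fold change 0.51), and relative to T cell genes 20 were higher and 0 lower (median 1.88). For heat shock and dissociation stress, on library totals 7 of 13 were higher and 0 lower in tumor (median log2 fold change 0.90), and relative to T cell genes 13 were higher and 0 lower (median 2.28). By omission of 1 library the number lower on totals became 2 (without LN library 2). For MHC class II presentation, on library totals 1 of 10 were higher and 5 lower in tumor (median log2 fold change -0.66), and relative to T cell genes 5 were higher and 1 lower (median 0.69). On omission of 1 library, the number higher on totals became 2 (without tumor library 1), and the number higher relative to T cell genes became 3 (without tumor library 2), and the number lower relative to T cell genes became 2 (without tumor library 2). Of 9 Th17-like genes 6 were tested, with 0 called on totals and 2 higher relative to T cell genes. With a library removed, the number higher relative to T cell genes became 1 (without LN library 1). The erythroid and platelet markers set LN library 2 apart, with sums of 0.144 and 71.4 CPM in LN and 41.8 and 126 CPM in tumor. Of 7 tested, 1 was higher and 0 lower on totals and 2 were higher relative to T cell genes. Without LN library 2 there were 5 and 6 higher on these scales, without LN library 1 0 and 1, and without tumor library 2 0 and 1. With limma-voom 7 and with a replicate block 4 were higher relative to T cell genes. Of the keratinocyte markers 0 were higher and 1 lower on totals and 2 higher relative to T cell genes. Without 1 of the libraries, the number higher on totals became 1 (without tumor library 2), and the number lower on totals became 0 (without LN library 1 or LN library 2 or tumor library 2), and the number higher relative to T cell genes became 0 (without LN library 2) and 1 (without tumor library 1).

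Ighm, the immunoglobulin mu constant gene, stood at 1190.2 and 1698 CPM in LN and 355 and 398 CPM in tumor, with log2 fold changes of -1.94 ± 0.16 on totals and -0.57 ± 0.17 relative to T cell genes; the second call was lost without LN library 2 (-0.29). The B cell surface gene Ms4a1, picked after the values had been seen, did not exceed 2.16 CPM in the same 4 libraries. Of the 15 B and plasma cell markers tested, 1 was higher and 5 lower on totals, where 19.6% of all genes were lower. Relative to T cell genes 2 were higher and 3 lower, where 1.69% of all genes were lower, and Cd22 was lower on both scales, as given above. The part of B cells in the drop of Ighm was not tested.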
